A study of Homo sapiens with 42 samples.

Results

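MiaPaCa-2 cells treated with simvastatin at 20 µM were compared with MiaPaCa-2 cells treated with lovastatin at 20 µM, with 3 simvastatin libraries set against 2 lovastatin libraries, 5 of the 42 libraries in the series. They were picked by line, compound and dose from the sample titles. Another column labelled as lovastatin at 20 µM was left out because it equalled 0.45 times lovastatin replicate 1 plus 0.48 times lovastatin replicate 2 plus 0.07 times simvastatin replicate 3, to within 5.00e-09 on the log2 scale. The series measured polyadenylated RNA by sequencing in 2 human pancreatic cancer lines, MiaPaCa-2 and PANC-1, which were left untreated or given fluvastatin, lovastatin or simvastatin at a low dose of 2 µM or a high dose of 20 µM. The further groups compared here were simvastatin at 2 µM (3 libraries), lovastatin at 2 µM (3 libraries) and untreated control (2 independent libraries) in MiaPaCa-2, and simvastatin and lovastatin at both doses in PANC-1 (3 libraries each). Fluvastatin at both doses in both lines and untreated PANC-1 control (3 libraries each) entered the fits and, for MiaPaCa-2, the principal components, and only means are given for fluvastatin at 20 µM in MiaPaCa-2. Every group grew in the same DMEM medium with fetal bovine serum. No source used here gives the vehicle of the control cells or the length of treatment. The labels do not say that replicates were separate cultures, so each p-value measures only the spread between these libraries, which may be technical.

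Statins block the making of mevalonate, from which cells build cholesterol as well as the farnesyl and geranylgeranyl groups that anchor Ras, Rab and other small GTPases to membranes. Cells short of sterols activate the SREBP transcription factors, which raise the genes of cholesterol synthesis and uptake. Simvastatin and lovastatin are both lactone prodrugs that are hydrolysed to the active acid, and simvastatin carries 1 more methyl group on its side-chain ester. The stress pathways that recur below have their own regulators. In the integrated stress response, phosphorylation of eIF2-alpha favours translation of ATF4, and ATF4 with C/EBP partners drives genes of amino acid supply through composite sites. NF-kappaB drives chemokine genes such as CXCL8, often together with AP-1, the dimer of FOS and JUN proteins.

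Promoters of 6 genes that carry these results are shown with the motifs that a search found in them. The windows run from 250 bases before to 50 bases after the gene start and come from RefSeq on GRCh38.p14. Capitals in the first 3, from genes of the integrated stress response and amino acid supply that were higher with simvastatin, mark the composite ATF and C/EBP motif TGATGNAA on either strand. ATF3 lies at chr1:212565157-212565456 on the plus strand, ASNS at chr7:97872359-97872658 on the minus strand and SLC3A2 at chr11:62881449-62881748 on the plus strand.

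ATF3: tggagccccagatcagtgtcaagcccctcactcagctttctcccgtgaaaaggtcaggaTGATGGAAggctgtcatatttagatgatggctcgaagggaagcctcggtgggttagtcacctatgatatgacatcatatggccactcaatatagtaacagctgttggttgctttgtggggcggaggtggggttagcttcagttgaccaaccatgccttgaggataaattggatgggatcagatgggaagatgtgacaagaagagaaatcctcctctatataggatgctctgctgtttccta

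ASNS: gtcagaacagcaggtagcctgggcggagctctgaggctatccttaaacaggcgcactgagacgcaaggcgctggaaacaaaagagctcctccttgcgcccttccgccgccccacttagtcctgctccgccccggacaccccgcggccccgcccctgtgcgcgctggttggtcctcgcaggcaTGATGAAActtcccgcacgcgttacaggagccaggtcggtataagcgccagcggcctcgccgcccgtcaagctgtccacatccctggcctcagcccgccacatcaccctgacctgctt

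SLC3A2: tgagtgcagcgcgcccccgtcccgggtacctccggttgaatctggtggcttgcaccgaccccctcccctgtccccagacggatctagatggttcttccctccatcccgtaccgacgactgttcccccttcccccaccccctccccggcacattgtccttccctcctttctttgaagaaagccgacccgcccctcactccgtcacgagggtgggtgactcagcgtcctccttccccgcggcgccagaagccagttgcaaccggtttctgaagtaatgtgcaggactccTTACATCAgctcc

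The composite motif starts 191 bases before the ATF3 start and 68 bases before the ASNS start, and lies on the opposite strand 38 bases after the SLC3A2 start. Over all 35116 promoters in the table, 3.62% held TGATGNAA. It was found in 3 of the 18 promoters matched for the 20 members of the integrated stress response list and in 3 of the 13 matched for the 19 members of the amino acid list. The cyclic AMP response element TGACGTCA was found in 1 of those 18 and 0 of those 13, beside 1.85% of all promoters.

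The other 3 promoters are from NF-kappaB-linked genes that were lower with simvastatin than with lovastatin. Capitals mark the AP-1 motif TGANTCA and a loose kappaB motif, GGG and CC with any 5 bases between them, in CXCL8, and the kappaB motif alone in CXCL1 and TNFAIP2, on either strand, with overlapping matches printed as 1 run. CXCL8 lies at chr4:73740319-73740618 on the plus strand, CXCL1 at chr4:73869143-73869442 on the plus strand and TNFAIP2 at chr14:103123211-103123510 on the plus strand.

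CXCL8: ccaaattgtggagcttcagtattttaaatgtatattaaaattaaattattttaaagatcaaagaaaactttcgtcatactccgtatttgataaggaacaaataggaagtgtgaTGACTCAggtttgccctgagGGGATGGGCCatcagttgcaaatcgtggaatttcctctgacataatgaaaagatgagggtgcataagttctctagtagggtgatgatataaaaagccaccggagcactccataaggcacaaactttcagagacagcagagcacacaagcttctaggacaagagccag

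CXCL1: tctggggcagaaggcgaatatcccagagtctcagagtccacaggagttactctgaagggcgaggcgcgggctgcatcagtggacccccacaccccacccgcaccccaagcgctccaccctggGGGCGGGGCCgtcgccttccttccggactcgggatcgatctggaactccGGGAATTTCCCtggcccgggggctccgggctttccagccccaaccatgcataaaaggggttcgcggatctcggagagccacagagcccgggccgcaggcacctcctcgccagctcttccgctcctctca

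TNFAIP2: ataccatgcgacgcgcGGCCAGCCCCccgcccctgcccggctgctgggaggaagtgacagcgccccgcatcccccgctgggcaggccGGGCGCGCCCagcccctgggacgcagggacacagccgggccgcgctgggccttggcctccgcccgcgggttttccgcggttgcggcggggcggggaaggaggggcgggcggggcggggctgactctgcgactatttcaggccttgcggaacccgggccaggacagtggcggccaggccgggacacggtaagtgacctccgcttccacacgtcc

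In CXCL8 the AP-1 motif starts 137 and the match to the loose kappaB motif 117 bases before the gene start. The search marks only letters that fit its pattern, so a kappaB site without GGG would be left unmarked. CXCL1 holds kappaB motifs that start 128 and 79 bases before the start, and TNFAIP2 holds them 234 and 163 bases before it. The loose kappaB motif was found in 6 of the 7 promoters matched for 9 NF-kappaB cytokine genes, and TGANTCA in 1 of them. For 16 NF-kappaB subunit and feedback genes, TNFAIP2 among them, the kappaB motif was in 14 of the 14 promoters matched and TGANTCA in 0. Those motifs were held by 58.7% and 7.71% of all promoters, so the kappaB match sets few genes apart. In the integrated stress response list the kappaB motif was in 11 of the 18 promoters matched and TGANTCA in 2. In the amino acid list they were in 9 and 1 of the 13. SLC3A2 holds TGACTCA 37 bases before its start, and SLC3A2 and ASNS hold kappaB matches, all left unmarked above. A match is a description of the letters and not a binding site.

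Levels are given as FPKM, fragments scaled to transcript length and to the mapped fragments of the library, taken back from the deposited log2 values, and differences are of log2(FPKM + 1), where the change of a low gene is understated. At least 97.1% of the values of each independent column recurred in 5 or more columns, so the levels may have been rescaled after that step. Equal values in 2 libraries can come from such shared values. The depth of the libraries is unknown, since no counts were used. The libraries fell together by group. The median SD between replicates was 0.138 on the log2 scale for simvastatin and 0.124 for lovastatin, and an SD over 0.5 was found for 3.27% of genes with simvastatin and 6.26% with lovastatin. In a principal component analysis of the 19 independent MiaPaCa-2 libraries, the first component (57.4% of the variance) placed simvastatin at 20 µM at 48 to 48.4, lovastatin at 20 µM at 37.9 and 39.2, and control at -25 and -24.8, so simvastatin lay furthest from control there. The second component (15.4%) placed simvastatin at 20 µM at -28.6 to -27.9, lovastatin at 20 µM at 5.1 and 5.5, and control at -30.0 and -29.6. Of 10 markers of epithelial and pancreatic carcinoma lines, 8 were in the table, and their summed level ran from 5841 to 6442 FPKM with simvastatin and from 8069 to 8592 FPKM with lovastatin. VIM was the largest part of both sums, at a mean of 3636 FPKM with simvastatin and 3388 FPKM with lovastatin. The gap between the sums came mostly from LGALS1 and S100A4. LGALS1 was at a mean of 1055 FPKM with simvastatin and 2563 FPKM with lovastatin, and S100A4 at 715 FPKM with simvastatin and 1604 FPKM with lovastatin. The keratins were split. KRT19, at 225 FPKM with simvastatin and 332 FPKM with lovastatin, shared that direction. KRT8, at 299 FPKM with simvastatin and 253 FPKM with lovastatin, did not, nor did KRT18, at 224 FPKM with simvastatin and 190 FPKM with lovastatin. VIM and the simple-epithelium keratins were high in both groups, while the epithelial adhesion genes EPCAM, at a mean of 1.2 FPKM with simvastatin and 0.585 FPKM with lovastatin, and CDH1, at 0.845 and 0.166 FPKM with simvastatin and with lovastatin, were near 0. Of 9 fibroblast markers 3 were in the table, with a sum of 26 to 38.8 FPKM with simvastatin and 141 to 150 FPKM with lovastatin. That sum was nearly all COL1A2, since COL1A1 was at 1.29 FPKM with simvastatin and 1.65 FPKM with lovastatin, and THY1 was near 0. Of 8 leukocyte markers, CD68 and CD14 were in the table and summed to 32.9 to 44.5 FPKM with simvastatin and 27.1 to 29.8 FPKM with lovastatin. In such bulk samples fewer cells of a type and less RNA per cell cannot be told apart.

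At 20 µM the compounds gave different levels for many of the genes tested, most of them by less than 2-fold. Of 8534 genes tested with limma, 3184 (37.3%) were called at an adjusted p under 0.05, of which 1531 (17.9%) were higher and 1653 (19.4%) lower with simvastatin. Changes of at least 2-fold made up 178 of the higher calls (2.09% of genes) and 319 of the lower calls (3.74%). The median difference over all genes was 0.02 and the median size of a difference was 0.31 on the log2 scale, with a median SE of 0.16. The columns share most of their values, as after scaling to a shared distribution, which would keep that median small. A shift of all genes alike could therefore not be seen. For 6592 genes (77.2%) the whole 95% confidence interval lay within 2-fold, and for 2382 (27.9%) it lay within 0.5 on the log2 scale. Without lovastatin replicate 2 the calls numbered 2214, of which 998 were higher, and without lovastatin replicate 1 the genes bounded within 0.5 numbered 1542.

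At 2 µM the same compounds were close to each other. Of the 8534 genes, 25 (0.293%) were called, 14 higher (0.164%) and 11 lower (0.129%) with simvastatin, 3 (0.0352%) and 1 (0.0117%) of them by at least 2-fold, and 843 had an unadjusted p under 0.05. The interval lay within 2-fold for 8133 genes (95.3%) and within 0.5 for 5275 (61.8%). The count of 25 depended on the setting, since it was 15 without simvastatin 2 µM replicate 2 and 2 with the compared groups fitted alone. The same pair was compared in 4 settings, at both doses in both lines. With p-values adjusted over all 4 together, 2703 genes were called at 20 µM and 255 at 2 µM in MiaPaCa-2, and 2782 at 20 µM and 66 at 2 µM in PANC-1. That joint cutoff is set mainly by the many calls at 20 µM, so false calls can make up more of its 2 µM counts. Adjusted within the comparison, PANC-1 at 2 µM had 0 calls in limma, with 365 genes at an unadjusted p under 0.05.

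**Figure D1:**
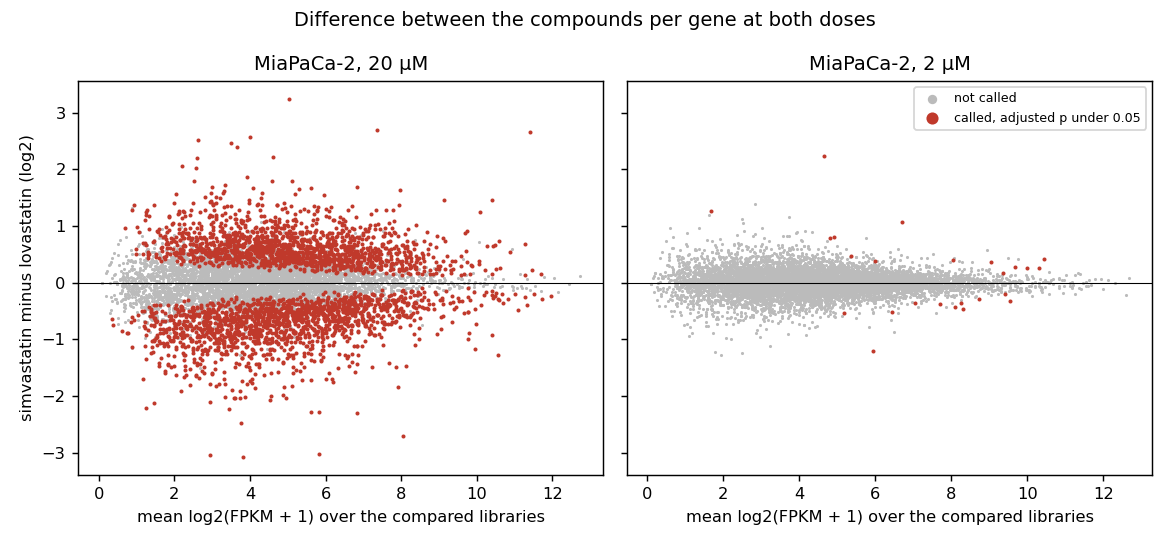
Each point is 1 gene in MiaPaCa-2 cells, with the difference simvastatin minus lovastatin (log2) on the vertical axis and the mean log2(FPKM + 1) over the compared libraries on the horizontal axis, at 20 µM (left) and 2 µM (right). Called genes are red, 3184 of 8534 at 20 µM and 25 of 8534 at 2 µM.

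HMOX1, heme oxygenase 1, which breaks down heme and is induced by oxidative stress, had the second largest increase by the rule used. Its level was 343, 350 and 351 FPKM with simvastatin, against 53.7 and 52.3 FPKM with lovastatin, with means of 32 FPKM with fluvastatin at 20 µM and 15.2 FPKM in control. All 3 simvastatin libraries lay above both lovastatin libraries by a wide margin, and the difference was 2.69 on the log2 scale (SE 0.11, limma adjusted p = 6.0e-11), or 6.47-fold. The largest increase, 3.24 for FAM25A, is uncertain because near-identical copies of that gene exist and the counting could split reads among them. DUSP15, a dual-specificity phosphatase, was at 31.3, 31.4 and 31.6 FPKM with simvastatin, against 4.6 and 4.29 FPKM with lovastatin, a difference of 2.57 on the log2 scale (SE 0.18, limma adjusted p = 2.2e-08). Its mean in control was 3.53 FPKM, near the lovastatin level. ABLIM3, an actin-binding LIM protein, was at 10.9, 11.7 and 11.7 FPKM with simvastatin, against 0.952 and 1.43 FPKM with lovastatin, a difference of 2.51 on the log2 scale (SE 0.21, limma adjusted p = 2.4e-07). NGFR, the low-affinity neurotrophin receptor, was at 23.8, 25 and 21.7 FPKM with simvastatin, against 4.15 and 3.22 FPKM with lovastatin, a difference of 2.39 on the log2 scale (SE 0.15, limma adjusted p = 7.2e-09). Both genes were low in control, at 0.547 FPKM for ABLIM3 and 1.76 FPKM for NGFR, so the simvastatin libraries stood apart from lovastatin and control alike.

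The cytoskeletal cross-linker FLNC was at 10.2, 11.1 and 9.15 FPKM with simvastatin, against 1.4 and 1.5 FPKM with lovastatin, and the difference was 2.19 on the log2 scale (SE 0.13, limma adjusted p = 6.5e-09). MYCL, a MYC family transcription factor, was at 10.2, 8.98 and 8.83 FPKM with simvastatin, against 1.33 and 1.73 FPKM with lovastatin, a difference of 2.03 (limma adjusted p = 6.7e-08). The interferon-linked gene SLFN5 was at 50.4, 59.8 and 58.2 FPKM with simvastatin, against 15.4 and 15.6 FPKM with lovastatin, 3.45-fold higher with simvastatin, and averaged 1.2 FPKM in control. For all 3 genes the groups did not overlap, as held for 4950 of the 8534 genes (58%), so a lack of overlap alone sets few genes apart. HES7, a Notch-linked transcriptional repressor, varied more among the simvastatin libraries, at 16.2, 21.9 and 27.6 FPKM with simvastatin, against 2.65 and 3.54 FPKM with lovastatin. PPARG, the nuclear receptor of fat cell differentiation, was at 17.3, 15.1 and 13.4 FPKM with simvastatin, against 3.93 and 3.82 FPKM with lovastatin, a difference of 1.73 on the log2 scale (SE 0.37, limma adjusted p = 0.0016). Others among the 15 largest increases were LMO4 at 1.79, the calcium-binding S100P at 2.21, the testis chaperone CLGN at 2.06, SERINC2 at 1.86 and ZNF674 at 1.80, all on the log2 scale.

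Genes with the largest decreases included secreted proteins, a protease and a keratin. PTGDS, prostaglandin D2 synthase, was at 23, 20 and 28.1 FPKM with simvastatin, against 201 and 194 FPKM with lovastatin, 8.11-fold lower with simvastatin (log2 -3.02, SE 0.18, limma adjusted p = 5.2e-09). Its mean was 546 FPKM with fluvastatin and 2.52 FPKM in control, so the 3 statins at 20 µM were spread over a wide range above the control. KRT15, a basal keratin, was at 129, 109 and 132 FPKM with simvastatin, against 805 and 811 FPKM with lovastatin, 6.53-fold lower with simvastatin (log2 -2.71, SE 0.07, limma adjusted p = 2.4e-13), with 1214 FPKM with fluvastatin and 65.9 FPKM in control. The 2 lovastatin libraries were nearly equal and lay far above the 3 simvastatin libraries.

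PLAU, the urokinase plasminogen activator, was at 56.6, 56.6 and 67 FPKM with simvastatin, against 270 and 326 FPKM with lovastatin, with 70.1 FPKM in control, and the difference was -2.29 on the log2 scale (SE 0.22, limma adjusted p = 6.9e-07). SNCG, gamma-synuclein, was at 5.23, 5.92 and 6.49 FPKM with simvastatin, against 33.7 and 41.2 FPKM with lovastatin, with 34.3 FPKM in control. For PLAU the simvastatin libraries sat near the control, and for SNCG the lovastatin libraries did. CSF3, the granulocyte colony-stimulating factor, was at 6.1, 5.69 and 5.53 FPKM with simvastatin, against 26.8 and 26.4 FPKM with lovastatin, with 0.931 FPKM with fluvastatin and 7.45 FPKM in control. RAB26, a GTPase of secretory vesicles, was at 2.55, 3.69 and 3.56 FPKM with simvastatin, against 17.8 and 16.7 FPKM with lovastatin. The matrix glycoprotein SPARC differed by -2.21 and the axonemal dynein assembly factor DNAAF3 by -2.04 on the log2 scale. TNFRSF6B, a decoy receptor for Fas ligand, differed by -2.28, and its locus overlaps RTEL1, so reads of the 2 genes could be mixed. Of the 15 largest decreases, EPGN at -2.22 and ADD3 at -2.12 lost their calls without lovastatin replicate 2, at -1.56 (limma adjusted p = 0.069) for EPGN and -1.44 (limma adjusted p = 0.14) for ADD3.

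**Figure D2:**
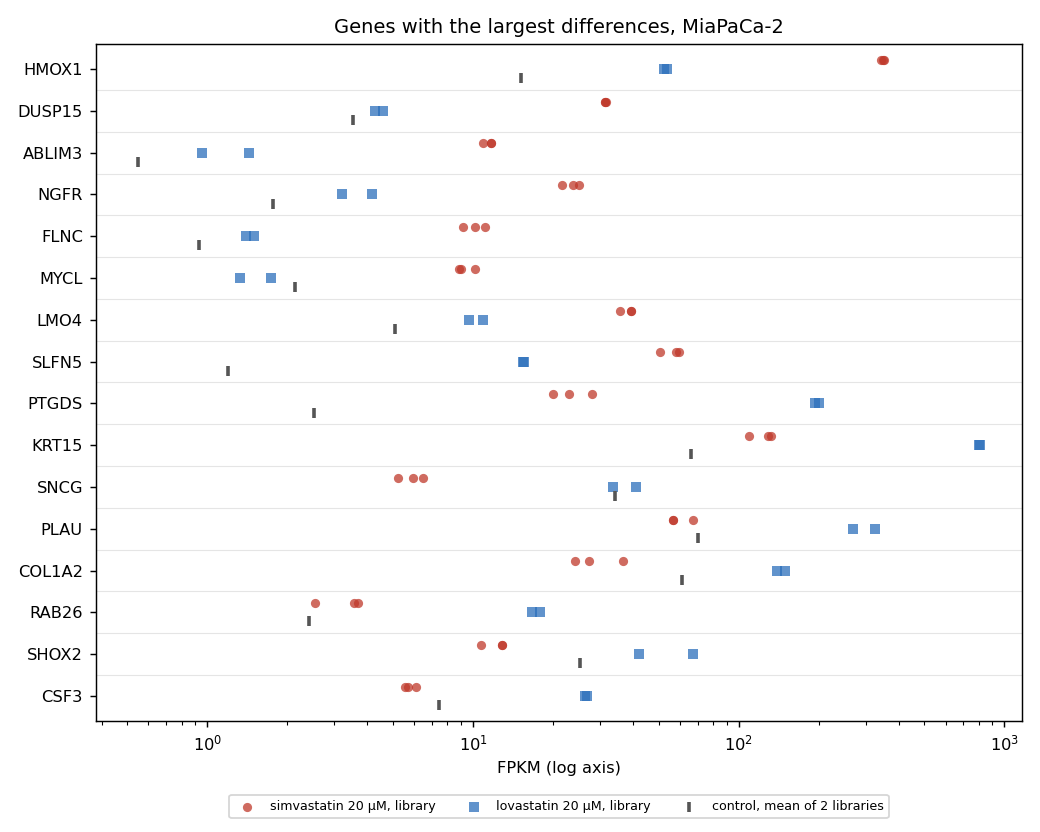
FPKM (log axis) of 16 genes in each MiaPaCa-2 library given simvastatin at 20 µM (red circles) or lovastatin at 20 µM (blue squares), with the mean of the 2 independent control libraries as a grey mark. Circles lie to the right of squares for the 8 genes from HMOX1 to SLFN5 and to the left for the 8 genes from PTGDS to CSF3, with no overlap in any of them.

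By their group means, UBE3D, COL1A2 and SHOX2 were at least 2-fold below the control with simvastatin and at least 2-fold above it with lovastatin, each called in both comparisons. Against control, 65.3% of genes were called with simvastatin and 58.9% with lovastatin, at least 2-fold lower for 12.8% with simvastatin and at least 2-fold higher for 11.3% with lovastatin. COL1A2, a chain of type I collagen, was at 36.8, 27.3 and 24.3 FPKM with simvastatin, against 149 and 139 FPKM with lovastatin, with 54.7 and 68 FPKM in control. SHOX2, a homeobox factor, was at 10.7, 12.9 and 12.8 FPKM with simvastatin, against 67.5 and 42.2 FPKM with lovastatin, with 25.1 and 25.2 FPKM in control. For both genes each control library lay between the simvastatin and the lovastatin libraries. UBE3D, a ubiquitin ligase, was at 5.62, 5.76 and 3.9 FPKM with simvastatin, against 43.3 and 56.8 FPKM with lovastatin, but its control libraries stood far apart, at 41.4 and 6.5 FPKM. One of them was near the simvastatin level and the other near the lovastatin level, so its place on opposite sides of the control rests on the mean of 2 discordant libraries. Against control the differences were -1.56 with simvastatin and 1.50 with lovastatin for UBE3D, and -1.04 with simvastatin and 1.22 with lovastatin for COL1A2. No gene met the same rule with simvastatin above and lovastatin below the control. Both comparisons use the same 2 control libraries.

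Several genes of the pathway that statins block were higher with simvastatin. Of 22 genes of mevalonate and cholesterol synthesis, 8 rose with simvastatin relative to lovastatin and 3 fell (1 without lovastatin replicate 2), with a median difference of 0.37 beside 0.02 over all genes. Over all genes tested, 17.9% were higher and 19.4% lower with simvastatin, the shares to read beside this and the later list counts. Among those higher were FDFT1, squalene synthase, at 171, 179 and 159 FPKM with simvastatin, against 94 and 81.4 FPKM with lovastatin, and SQLE, squalene epoxidase, at 45.7, 45.1 and 45.5 FPKM with simvastatin, against 20.4 and 25.5 FPKM with lovastatin. DHCR7, which makes the last reduction to cholesterol, was at 109, 117 and 136 FPKM with simvastatin, against 61.2 and 61.2 FPKM with lovastatin. These 3 genes differed by 0.95, 0.96 and 0.96 on the log2 scale, and for each of them every simvastatin library was above both lovastatin libraries. HMGCS1, an early enzyme of the mevalonate pathway, was higher by 0.77, while PMVK, phosphomevalonate kinase, was lower, at -0.60.

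INSIG1, which holds the SREBP complex in the endoplasmic reticulum, was at 81.3, 62.9 and 86.9 FPKM with simvastatin, against 30.8 and 32 FPKM with lovastatin, with 32.2 FPKM in control. The difference was 1.26 on the log2 scale (SE 0.14, limma adjusted p = 3.0e-06), and the lovastatin libraries were at the control level. Of 15 genes of sterol regulation and lipoprotein uptake, 4 rose and 1 fell (0 without simvastatin replicate 2 or without lovastatin replicate 1), with a median of 0.10. That share of calls was near the 37.3% over all genes. The regulator SREBF2 itself was higher by 0.66. In fatty acid synthesis 4 of 9 genes rose and 2 fell (1 without simvastatin replicate 2 or without either lovastatin replicate), with a median of 0.51. SCD, the stearoyl-CoA desaturase, was at 203, 203 and 202 FPKM with simvastatin, against 83.7 and 90.8 FPKM with lovastatin, and the difference was 1.21 on the log2 scale (SE 0.05, limma adjusted p = 4.5e-11). Its control mean of 143 FPKM lay between the groups, at 0.50 for simvastatin and -0.71 for lovastatin against control on the log2 scale. FADS1, a desaturase of polyunsaturated fatty acids, was higher by 1.30 and the elongase ELOVL5 was lower, at -0.42.

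Genes of prenylation and of the prenylated GTPases showed no shared direction. Of 9 prenyl transferase and CAAX processing genes, 1 was called, FNTA, the alpha subunit that 2 protein prenyl transferases share, at -0.53, and the count was 0 without simvastatin replicate 3 or without either lovastatin replicate. The interval lay within 2-fold for 7 of the 9, beside 77.2% of all genes. Of 29 small GTPases of the Ras superfamily, 7 rose and 5 fell, with a median of 0.03, a share of calls near the 37.3% over all genes. Those counts were 3 and 3 without lovastatin replicate 2, and 3 fell without simvastatin replicate 2. The interval lay within 2-fold for 26 of the 29, beside 77.2% of all genes, and named calls were small, at 0.52 for RAB32, 0.46 for the late endosome GTPase RAB7A and -0.42 for RRAS.

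Kruppel-like factors, zinc finger regulators of which KLF2 is a known statin-responsive member, were split. KLF2 was at 299, 319 and 318 FPKM with simvastatin, against 304 and 342 FPKM with lovastatin, with 51.8 FPKM in control, and its difference of -0.05 had a 95% confidence interval of -0.21 to 0.12 (limma adjusted p = 0.66). The groups overlapped far above the control. Of 9 members 6 rose and 1 fell with simvastatin relative to lovastatin, with a median of 0.58. KLF11 was at 18, 19.4 and 17.4 FPKM with simvastatin, against 8.13 and 9.02 FPKM with lovastatin, a difference of 1.01, and KLF6 at 501, 494 and 492 FPKM with simvastatin, against 332 and 324 FPKM with lovastatin, a difference of 0.59. KLF9 was the member that fell, at -0.68. Beside control, where 32.2% of all genes were higher with simvastatin and 28.8% with lovastatin, 9 of the 9 were higher with simvastatin and 6 with lovastatin.

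Genes of the integrated stress response were higher with simvastatin than with lovastatin. Of 20 transcription factors and effectors, 15 rose and 0 fell (13 to 15 rose when single libraries were left out), with a median difference of 0.74 beside 0.02 over all genes. ATF3, a transcription factor of that response, whose promoter is shown above, was at 314, 308 and 319 FPKM with simvastatin, against 124 and 131 FPKM with lovastatin, with 5.13 FPKM in control. TRIB3, a pseudokinase induced by ATF4 and DDIT3, was at 155, 149 and 149 FPKM with simvastatin, against 57 and 59.6 FPKM with lovastatin, with 15.6 FPKM in control. The ordering was the same for both, simvastatin above lovastatin above control, and the differences between the compounds were 1.29 on the log2 scale (SE 0.16, limma adjusted p = 1.7e-05) for ATF3 and 1.36 on the log2 scale (SE 0.09, limma adjusted p = 1.9e-08) for TRIB3. SESN2, a sestrin that restrains mTORC1, was at 67.3, 66.1 and 61.1 FPKM with simvastatin, against 27.2 and 25.5 FPKM with lovastatin, a difference of 1.27 on the log2 scale. VEGFA, the vascular growth factor, which ATF4 can also induce, was at 230, 230 and 230 FPKM with simvastatin, against 97.6 and 90.4 FPKM with lovastatin, a difference of 1.28. In both genes the simvastatin libraries were more than 2-fold above the lovastatin libraries.

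ATF4 and DDIT3, the transcription factors most often named in this pathway, were looked up after the values were seen. ATF4 was at 545, 518 and 521 FPKM with simvastatin, against 283 and 285 FPKM with lovastatin, with 121 FPKM in control, a difference of 0.89 on the log2 scale (SE 0.05, limma adjusted p = 1.2e-09). DDIT3, also called CHOP, was at 167, 168 and 167 FPKM with simvastatin, against 139 and 128 FPKM with lovastatin, with 14.8 FPKM in control, a difference of 0.32. The 3 simvastatin libraries differed by little among themselves in both, and DDIT3 lost its call without lovastatin replicate 2, at 0.26 (limma adjusted p = 0.15). GDF15, a secreted stress cytokine, and PPP1R15B, a subunit of an eIF2-alpha phosphatase, were not called, at -0.11 and -0.13. Beside control, 19 of the 20 members were higher with simvastatin and 18 with lovastatin, with medians of 2.36 and 1.43 for simvastatin and for lovastatin, from comparisons that share the control libraries.

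Amino acid supply followed the same direction in most members. Of 19 genes of amino acid synthesis and uptake linked to ATF4, 13 rose and 2 fell (1 without simvastatin replicate 1 or 3 or without lovastatin replicate 1), with a median of 0.68. SLC3A2, the heavy chain shared by several amino acid exchangers, was at 863, 776 and 903 FPKM with simvastatin, against 331 and 287 FPKM with lovastatin, with 166 FPKM in control, and the difference was 1.45 on the log2 scale (SE 0.11, limma adjusted p = 5.4e-08). ASNS, asparagine synthetase, was at 199, 249 and 232 FPKM with simvastatin, against 127 and 107 FPKM with lovastatin, with 81.3 FPKM in control, a difference of 0.95 (limma adjusted p = 3.9e-05). In both genes, whose promoters are shown above, the order was again simvastatin, lovastatin, control from high to low. The neutral amino acid transporter SLC1A4 was higher by 1.29, the glycine transporter SLC6A9 by 0.96 and the mitochondrial serine hydroxymethyltransferase SHMT2 by 0.91. ALDH18A1, which starts proline synthesis, was lower, at -0.91.

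The aminoacyl-tRNA synthetases, several of which ATF4 also drives, moved the same way by smaller amounts, with 10 of 18 higher and 0 lower and a median of 0.39. SARS, seryl-tRNA synthetase, was at 360, 375 and 388 FPKM with simvastatin, against 198 and 190 FPKM with lovastatin, and GARS, glycyl-tRNA synthetase, was at 688, 684 and 716 FPKM with simvastatin, against 397 and 437 FPKM with lovastatin. Those differences were 0.95 and 0.74 on the log2 scale, and YARS, TARS and AARS differed by 0.96, 0.87 and 0.61. The interval lay within 2-fold for 15 of the 18, beside 77.2% of all genes.

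Several chaperones of the endoplasmic reticulum went the other way. Of 17 genes of ER chaperones and the unfolded protein response, 4 rose and 9 fell, with a median of -0.43. PDIA4, a protein disulfide isomerase, was at 53.7, 54 and 50.4 FPKM with simvastatin, against 115 and 113 FPKM with lovastatin, with 103 FPKM in control, a difference of -1.10 on the log2 scale (SE 0.06, limma adjusted p = 3.7e-09). HSP90B1, the ER form of HSP90, was at 239, 288 and 226 FPKM with simvastatin, against 458 and 481 FPKM with lovastatin, with 273 FPKM in control, a difference of -0.91. The lovastatin libraries lay above every simvastatin library in both genes. SDF2L1, another ER chaperone component, was lower by the same measure, at -0.88. XBP1, a transcription factor of the unfolded protein response, was higher, at 266, 289 and 282 FPKM with simvastatin, against 139 and 147 FPKM with lovastatin, a difference of 0.96, as was SEL1L, of ER-associated degradation, at 0.87. Cytosolic and mitochondrial heat shock proteins were mixed, with 4 of 12 higher and 2 lower and a median of 0.11. The mitochondrial co-chaperonin HSPE1 was at 115, 123 and 129 FPKM with simvastatin, against 233 and 231 FPKM with lovastatin, a difference of -0.92, and HSPA4 was higher by 0.65.

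Some targets of NRF2, the regulator of antioxidant genes, were higher with simvastatin, 8 of 18 with 1 lower and a median of 0.49. HMOX1, described above, is a member of that list. SRXN1, sulfiredoxin, was at 117, 112 and 112 FPKM with simvastatin, against 58.8 and 60.6 FPKM with lovastatin, a difference of 0.92, and FTH1, ferritin heavy chain, at 1873, 1907 and 1907 FPKM with simvastatin, against 1131 and 1155 FPKM with lovastatin, a difference of 0.73. AKR1C1, an aldo-keto reductase with near-identical relatives, was at 613, 621 and 646 FPKM with simvastatin, against 354 and 353 FPKM with lovastatin, and reads could be split among them. NQO1 and FTL were not called, at 0.05 with a 95% confidence interval of -0.03 to 0.13 for NQO1 and 0.12 with 0.00 to 0.23 for FTL, so neither interval reached 2-fold. Without lovastatin replicate 2, FTL was called, at 0.23 (limma adjusted p = 0.0031).

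Chemokine and cytokine genes under NF-kappaB were lower with simvastatin than with lovastatin. Of 9, 0 rose and 7 fell (5 to 6 fell when single libraries were left out), with a median of -0.96 beside 0.02 over all genes. CXCL8, the neutrophil chemokine interleukin-8, was at 167, 138 and 151 FPKM with simvastatin, against 421 and 428 FPKM with lovastatin, with 42 FPKM in control, and the difference was -1.48 on the log2 scale (SE 0.10, limma adjusted p = 2.8e-08). CXCL2, a related chemokine, was at 35.8, 33.5 and 38.4 FPKM with simvastatin, against 82.2 and 72.8 FPKM with lovastatin, with 7.35 FPKM in control, a difference of -1.09. Both compounds were above control for these genes, lovastatin further than simvastatin. CXCL1 was at 55.7, 64.9 and 66.7 FPKM with simvastatin, against 156 and 150 FPKM with lovastatin, with 83.1 FPKM in control, and the difference was -1.28 on the log2 scale (SE 0.10, limma adjusted p = 7.4e-08). For CXCL1 the control lay between the compounds, at -0.41 with simvastatin and 0.87 with lovastatin against it. IL1B was at 3.65, 4.73 and 4.07 FPKM with simvastatin, against 19.4 and 11 FPKM with lovastatin, a difference of -1.61, and CSF1, the macrophage growth factor, differed by -0.96. LIF and CXCL5 were not called, at 0.27 and -0.23. Relative to control, 6 of the 9 were higher and 1 lower with simvastatin, and 8 higher and 0 lower with lovastatin. Those medians were 1.36 and 2.31. Over all genes, 32.2% were higher than control with simvastatin and 28.8% with lovastatin.

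Of 16 NF-kappaB subunits and feedback genes, 1 rose and 4 fell with simvastatin relative to lovastatin (2 without lovastatin replicate 1), with a median of -0.18. That share of calls was near the 37.3% over all genes. Relative to control, 15 of the 16 were higher with simvastatin and 14 with lovastatin, with medians of 1.38 and 1.64, and 0 were lower with either. TNFAIP2, a TNF-induced gene, was at 136, 142 and 134 FPKM with simvastatin, against 352 and 388 FPKM with lovastatin, with 49.3 FPKM in control, a difference of -1.42 (limma adjusted p = 2.6e-08). SOD2, the mitochondrial superoxide dismutase, was lower, at -0.68, and the inhibitor subunit NFKBIB was higher, at 0.83. NFKBIA, the main IkappaB, was not called, at -0.75 (limma adjusted p = 0.066), but was called without simvastatin replicate 1, at -0.91 (limma adjusted p = 0.049).

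More MAPK feedback and AP-1 genes fell than rose, with 9 of 21 lower and 1 higher (2 without simvastatin replicate 1) and a median of -0.06. EGR1, an immediate early transcription factor, was at 18.1, 16.8 and 16 FPKM with simvastatin, against 64.7 and 61.8 FPKM with lovastatin, with 14 FPKM in control, a difference of -1.84 on the log2 scale (SE 0.09, limma adjusted p = 7.3e-10). FOS, a subunit of AP-1, was at 41.1, 38.8 and 37.5 FPKM with simvastatin, against 125 and 133 FPKM with lovastatin, with 4.46 FPKM in control, a difference of -1.69 on the log2 scale (SE 0.33, limma adjusted p = 0.00077). For EGR1 the simvastatin libraries sat close to the control, and for FOS both compounds were above it. FOSB differed by -1.26, the Ras-MAPK inhibitor SPRY4 by -1.35, JUNB by -0.79 and the MAPK phosphatase DUSP1 by -0.78.

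Interferon-stimulated genes did not share a direction. Of 19, 2 rose and 8 fell with simvastatin, with a median of -0.07, and without lovastatin replicate 2 the counts were 1 and 5. ISG15, a ubiquitin-like protein, was at 95.1, 88.3 and 96.2 FPKM with simvastatin, against 41.9 and 40.9 FPKM with lovastatin, a difference of 1.15. IFI6, an interferon-induced protein, was at 5.84, 9.21 and 6.61 FPKM with simvastatin, against 21.6 and 21.4 FPKM with lovastatin, a difference of -1.48. The membrane antiviral proteins IFITM3 and IFITM1 differed by -1.36 and -1.06, and reads of these close paralogs could be split.

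**Figure D3:**
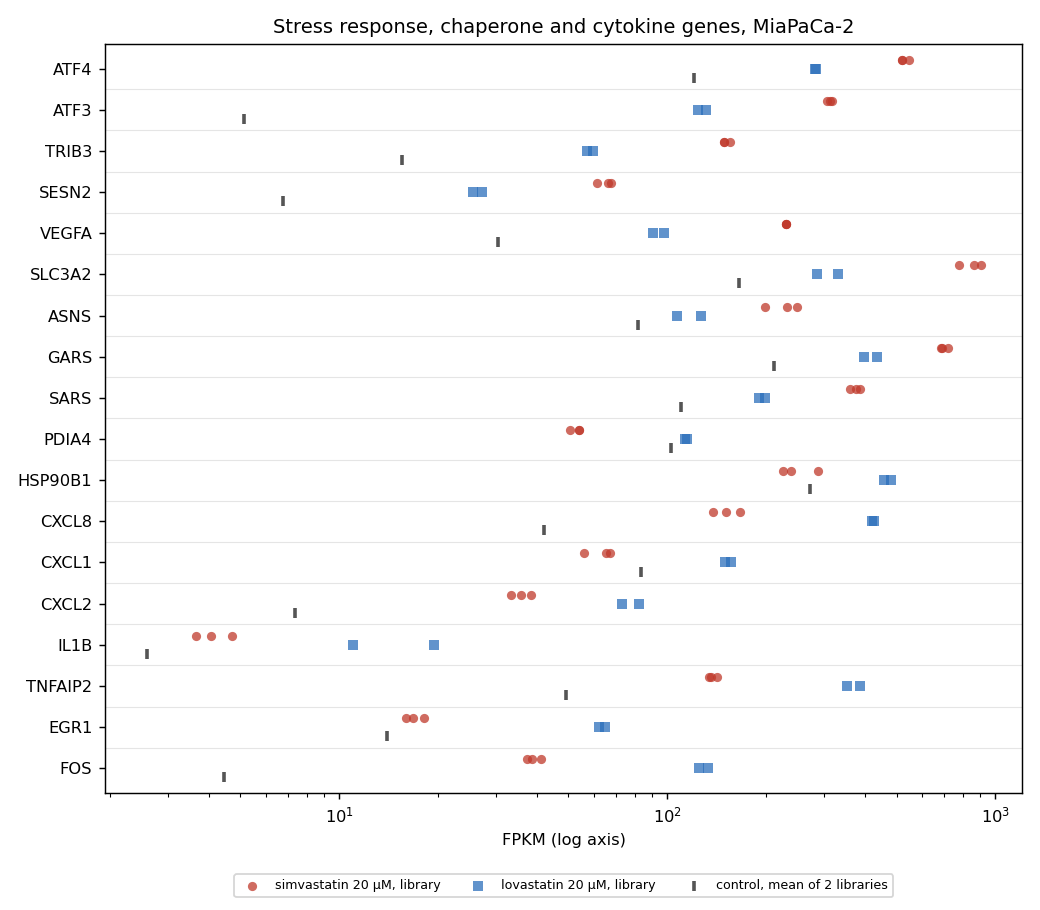
FPKM (log axis) of 18 stress response, chaperone and cytokine genes in each MiaPaCa-2 library given simvastatin at 20 µM (red circles) or lovastatin at 20 µM (blue squares), with the mean of the 2 independent control libraries as a grey mark. The 9 genes from ATF4 to SARS have simvastatin to the right of lovastatin, and the 9 from PDIA4 to FOS have it to the left.

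Several genes of the extracellular matrix and its receptors were lower with simvastatin. Of 24, 12 fell and 1 rose (0 when any single library was left out), with a median of -0.40. The hemidesmosomal collagen COL17A1 was at 33.5, 24 and 30.9 FPKM with simvastatin, against 108 and 90.1 FPKM with lovastatin, with 37.4 FPKM in control, a difference of -1.72 on the log2 scale (SE 0.12, limma adjusted p = 1.7e-08). The collagen cross-linking enzyme LOXL2 differed by -1.51, the laminin receptor subunit ITGB4 by -1.46, the collagenase MMP1 by -1.23 and COL6A1 by -1.15. The summed fibroblast markers given above were lower in the same libraries, with COL1A2 as their main member, and their part in these counts was not tested. Of 13 keratins and junction genes, 4 fell and 2 rose (0 without lovastatin replicate 1, and 1 without simvastatin replicate 3 or lovastatin replicate 2), with a median of -0.01. The tight junction protein CLDN4 differed by -0.75 and the simple keratin KRT19 by -0.56. KRT16, a keratin of stressed epidermis, was at 170, 156 and 164 FPKM with simvastatin, against 163 and 186 FPKM with lovastatin, with 1.41 FPKM in control, and was not called.

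Of 19 genes of SRF and the actin cytoskeleton, 1 rose and 9 fell, with a median of -0.15. The focal adhesion protein VCL differed by -0.91, the myosin light chain MYL9 by -0.79, the tropomyosin TPM2 by -0.64 and the LIM protein FHL2 by -0.54. TPM1, another tropomyosin, was the member that rose, at 1.13. Of 12 targets of YAP and TAZ, 1 rose and 4 fell (2 without simvastatin replicate 3 or lovastatin replicate 2), with a median of -0.26. The kinase NUAK2 differed by -0.91, the matricellular gene CYR61 by -0.86 and the transcription factor TEAD4 by 0.87.

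Cell cycle genes were far below control with both compounds. Of 34 DNA replication genes, 33 were lower than control with simvastatin and 34 with lovastatin, where 33.1% of all genes were lower with simvastatin and 30.1% with lovastatin, with medians of -2.08 and -2.22 for simvastatin and for lovastatin. Of 34 mitosis genes, 34 were lower with simvastatin and 33 with lovastatin, with medians of -2.36 and -2.50. Between the compounds, 4 replication genes rose (2 without simvastatin replicate 1) and 2 fell (1 without simvastatin replicate 2), with a median of 0.09. The interval lay within 2-fold for 26 of the 34, beside 77.2% of all genes. For mitosis 6 rose (3 without lovastatin replicate 2) and 4 fell, with a median of 0.08, and the interval lay within 2-fold for 29 of the 34. In both lists the share of calls was below the 37.3% over all genes. CDC6, which loads the replicative helicase, was at 35.1, 24.7 and 31.8 FPKM with simvastatin, against 9.51 and 9.43 FPKM with lovastatin, with 73.4 FPKM in control, a difference of 1.58 on the log2 scale (SE 0.21, limma adjusted p = 2.9e-05). Both compounds were below control, lovastatin further. RFC2, of the clamp loader, differed by 0.89, the mitotic phosphatase CDC25C by 0.82, the spindle factor TPX2 by 0.55 and cyclin B1 (CCNB1) by -0.46.

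Of 19 cell cycle inhibitors and p53-type targets, 7 rose and 7 fell, with a median of -0.07, and 2 fell without lovastatin replicate 2. GADD45A, a stress-induced growth arrest gene, was at 269, 253 and 262 FPKM with simvastatin, against 144 and 142 FPKM with lovastatin, a difference of 0.87. XPC, of DNA damage recognition, and PHLDA3 were 2.15-fold and 2.08-fold higher, and BTG2, an antiproliferative gene, was lower, at -1.19. In the BCL2 family, 0 of 13 rose and 3 fell, with a median of -0.05, a share of calls below the 37.3% over all genes. The BH3-only genes BMF and PMAIP1 differed by -1.01 and -0.74. The interval lay within 2-fold for 11 of the 13, beside 77.2% of all genes.

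Of 27 proteasome subunits, 12 were higher with simvastatin than with lovastatin (7 without lovastatin replicate 2) and 1 was lower (2 without simvastatin replicate 1). Their median difference was 0.19, and 26 of the 27 intervals lay within 2-fold, beside 77.2% of all genes. Relative to control, 15 of the 27 were lower and 1 higher with simvastatin, and 20 lower and 0 higher with lovastatin. Those medians were -0.31 and -0.53. Over all genes, 33.1% were lower than control with simvastatin and 30.1% with lovastatin. PSMD11, of the proteasome lid, was at 141, 172 and 158 FPKM with simvastatin, against 75 and 82 FPKM with lovastatin, a difference of 0.99. Of 27 ribosome biogenesis genes, 10 were higher with simvastatin than with lovastatin, among them WDR43 at 0.81 and NPM1, nucleophosmin, at 0.69. In that list 2 were lower (0 without lovastatin replicate 1, and 1 without simvastatin replicate 1 or lovastatin replicate 2), and the median was 0.22. Relative to control, 18 of these 27 were lower and 2 higher with simvastatin, and 22 lower and 0 higher with lovastatin. Those medians were -0.53 and -0.77. Of 28 cytosolic ribosomal proteins, 4 rose and 9 fell, with a median of -0.09. RPL15 and RPS15 each differed by -0.35, while RPS27 was higher by 1.55, and ribosomal protein genes have many processed pseudogenes that can take reads. Of 29 nuclear-encoded genes of the respiratory chain, 14 fell and 0 rose, with a median of -0.23. The complex I subunit NDUFS7 was at 64.8, 58.6 and 65.8 FPKM with simvastatin, against 101 and 111 FPKM with lovastatin, a difference of -0.74, NDUFA1 differed by -0.72 and the cytochrome oxidase subunit COX6C by -0.70.

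Of 22 autophagy and lysosome genes, 6 rose and 5 fell, with a median of 0.04. The autophagy receptor SQSTM1 was at 1719, 1719 and 1756 FPKM with simvastatin, against 1065 and 1109 FPKM with lovastatin, a difference of 0.67. GABARAPL1, of the ATG8 family, was higher by 0.95, and the autophagy gene ATG9B and the lysosomal protease CTSB were lower, at -1.77 and -0.69. Of 25 hypoxia and glycolysis genes, 6 rose and 2 fell (1 without simvastatin replicate 3 or lovastatin replicate 1), with a median of 0.03, including hexokinase 2 (HK2), 2.14-fold higher, and the glucose transporter SLC2A1, 1.42-fold higher. Their share of calls was near the 37.3% over all genes. Of 13 histone genes seen in polyadenylated RNA, 5 rose and 1 fell (0 without lovastatin replicate 2), with a median of 0.36. The linker histone H1F0 was at 79, 81.1 and 80.6 FPKM with simvastatin, against 30.4 and 31.6 FPKM with lovastatin, a difference of 1.34. Of 13 common reference genes, 1 rose (2 without simvastatin replicate 2) and 6 fell, with a median of -0.19. GAPDH was at 1907, 2013 and 1834 FPKM with simvastatin, against 2013 and 2181 FPKM with lovastatin, a difference of -0.13 that was not called, while B2M, also used as a reference, differed by -0.59.

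**Figure D4:**
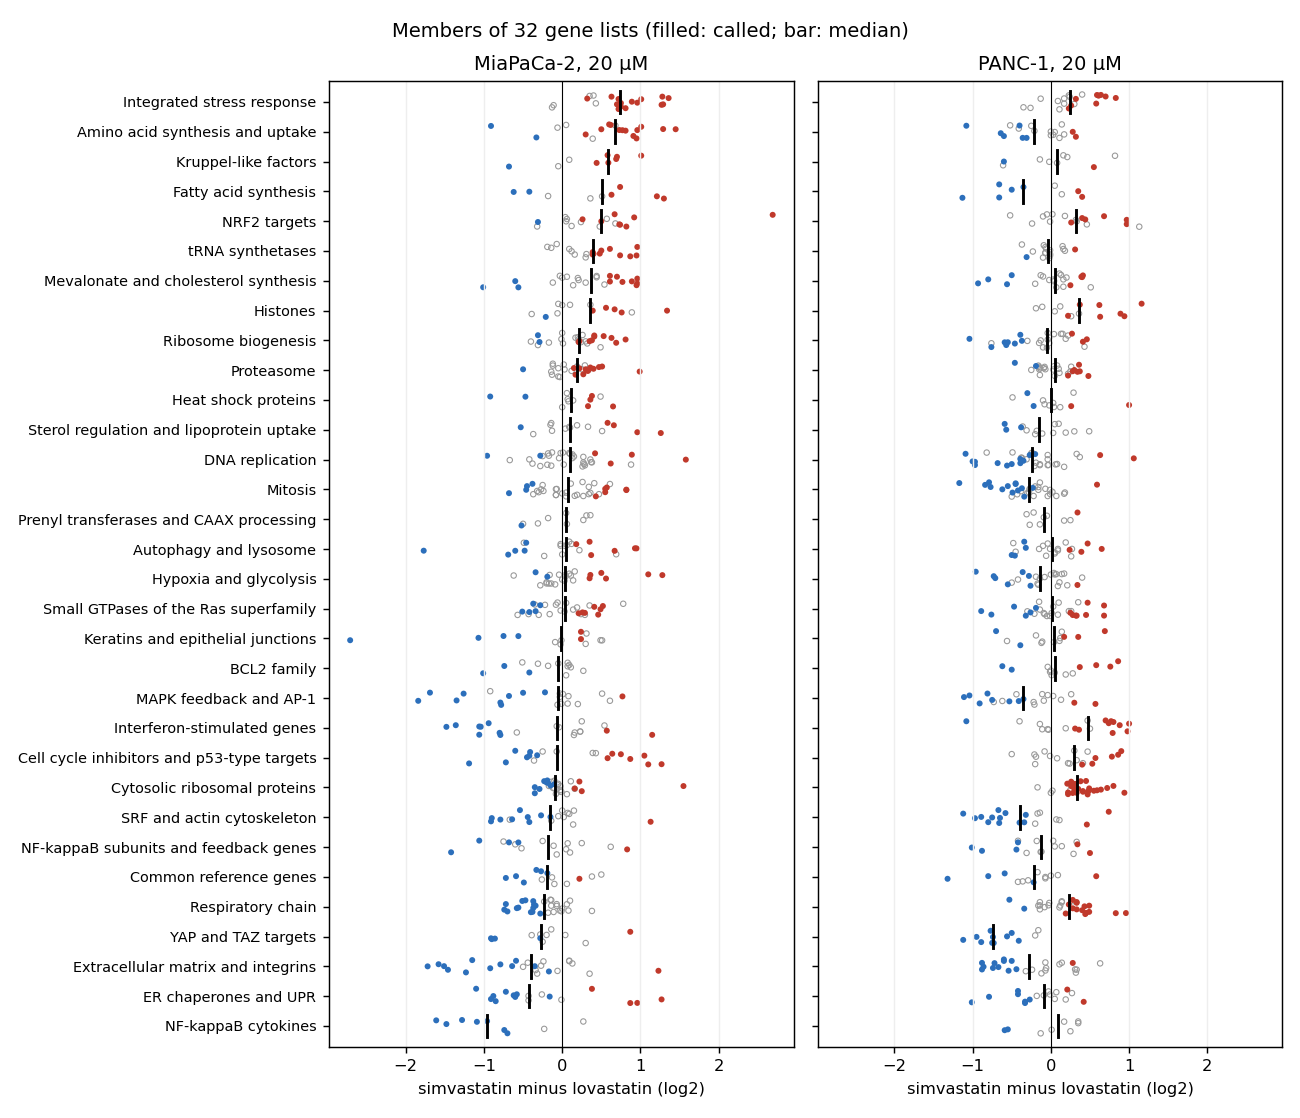
Simvastatin minus lovastatin at 20 µM (log2) for each member of 32 gene lists in MiaPaCa-2 (left) and PANC-1 (right), with filled points for called genes (red higher, blue lower with simvastatin), open points for the rest and a black bar at each list's median. In MiaPaCa-2 the medians run from -0.96 for NF-kappaB cytokines to 0.74 for the integrated stress response, and most lists lie close to 0.

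The difference between the compounds changed with dose for 2080 of 8534 genes (24.4%) by the test of the difference between doses, in which 963 (11.3%) were further up and 1117 (13.1%) further down with simvastatin at 20 µM than at 2 µM, by at least 2-fold for 218 (2.55%) and 330 (3.87%). HMOX1 averaged 30.2 FPKM with simvastatin and 31.2 FPKM with lovastatin at 2 µM, and its difference between doses was 2.74 on the log2 scale (SE 0.15, limma adjusted p = 3.8e-09). ABLIM3 and NGFR likewise had differences between doses of 2.61 and 2.42, and PPARG one of 2.30. PTGDS, SNCG and CSF3 were further down at 20 µM, with differences between doses of -3.16, -2.51 and -2.53. At 2 µM no member of the integrated stress response, amino acid or NF-kappaB cytokine lists was called. By the test between doses, 15 of the 20 integrated stress response genes were further up and 0 further down at 20 µM, as were 12 of 19 amino acid genes with 2 further down. Of the 9 NF-kappaB cytokines, 5 were further down and 0 further up.

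The largest low-dose differences, chosen after the values were seen, did not hold in every alternative fit. SIPA1L3, of the SIPA1 family, was at 43, 67.1 and 52.6 FPKM with simvastatin, against 11.7, 9.72 and 10.1 FPKM with lovastatin at 2 µM. The translational repressor EIF4E2 was at 127, 148 and 175 FPKM with simvastatin, against 97.6, 63.3 and 56.6 FPKM with lovastatin at 2 µM. The low-dose differences were 2.24 and 1.07 on the log2 scale, beside 1.27 for AKNA and -1.21 for the pseudogene COX7CP1. SIPA1L3 lost its call without simvastatin 2 µM replicate 2, at 2.08 (limma adjusted p = 0.063), and the other 3 lost theirs there too, at 1.22 for AKNA, 1.07 for EIF4E2 and -0.97 for COX7CP1.

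**Figure D5:**
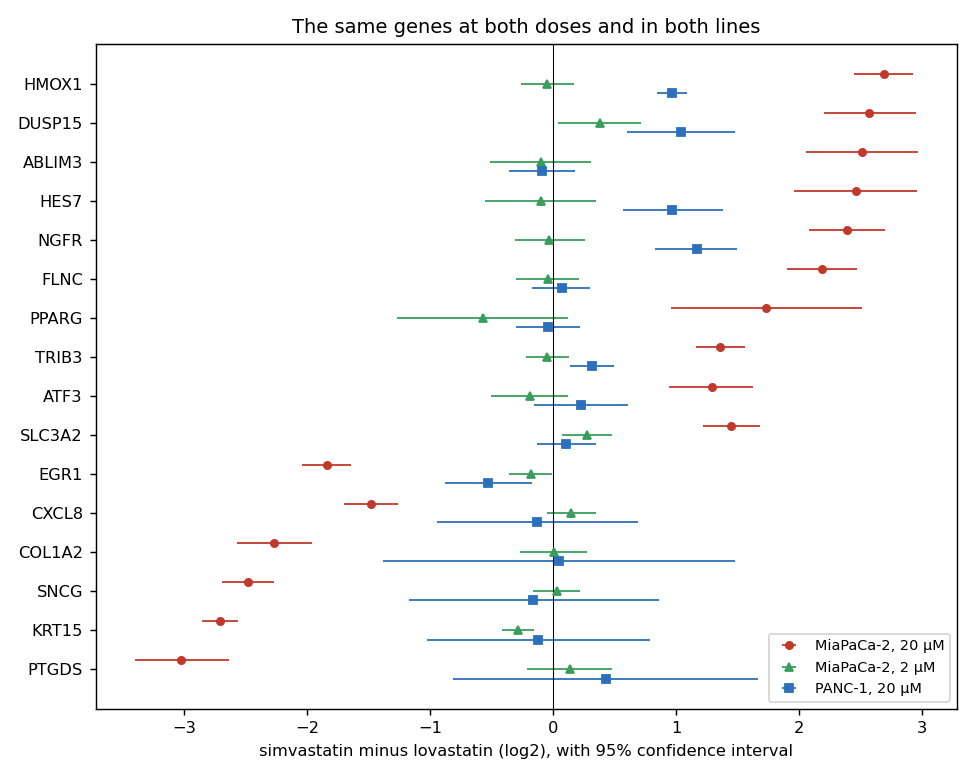
Simvastatin minus lovastatin (log2) with its 95% confidence interval for 16 genes in MiaPaCa-2 at 20 µM (red circles), MiaPaCa-2 at 2 µM (green triangles) and PANC-1 at 20 µM (blue squares). The red circles lie between -3.02 for PTGDS and 2.69 for HMOX1, while the green triangles lie between -0.57 for PPARG and 0.38 for DUSP15.

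A like share of genes separated the compounds in PANC-1 at 20 µM, and for many genes the separation differed between the lines. Of 8615 genes tested there, 3319 (38.5%) were called, 1514 (17.6%) higher and 1805 (21%) lower with simvastatin, of which 92 (1.07%) and 140 (1.63%) by at least 2-fold. The count of 92 was 142 without PANC-1 simvastatin replicate 1 and 139 without replicate 2 of that group. In the test of the difference between the lines, 3412 of 8738 genes (39%) were called, 1796 (20.6%) further up and 1616 (18.5%) further down in MiaPaCa-2 than in PANC-1, by at least 2-fold for 502 (5.75%) and 622 (7.12%). The PANC-1 simvastatin libraries had a median SD of 0.188, with 9.64% of genes over 0.5. HMOX1 was higher with simvastatin in both lines, at a mean of 304 FPKM with simvastatin and 155 FPKM with lovastatin in PANC-1, a difference of 0.97 there. ABLIM3 and FADS1 were further up in MiaPaCa-2, by 2.60 and 2.43. PTGDS, TNFRSF6B and C8G, a complement subunit, were further down in MiaPaCa-2, with differences between the lines of -3.45, -3.46 and -2.78. All 3 were low in PANC-1, with simvastatin and lovastatin means of 7.93 and 4.8 FPKM for PTGDS and 1.57 and 0.0406 FPKM for C8G. TNFRSF6B was at 1.55, 2.53 and 8.83 FPKM with simvastatin there, against a mean of 0.972 FPKM with lovastatin. PTGDS and TNFRSF6B were not called between the compounds in PANC-1. FGFR1, a growth factor receptor, was at 16.4, 14 and 18.5 FPKM with simvastatin, against 22.7, 37.9 and 52.3 FPKM with lovastatin in PANC-1, and its difference between the lines was 2.76.

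By list, the integrated stress response had the same direction in both lines, with 9 of its 20 members higher and 0 lower in PANC-1 (1 lower without PANC-1 simvastatin replicate 2), although 9 were further up in MiaPaCa-2 and 0 further down (1 without PANC-1 simvastatin replicate 3). Amino acid genes were split by line, with 2 of 19 higher and 6 lower in PANC-1, and 14 further up in MiaPaCa-2. For tRNA synthetases 8 of 18 were further up in MiaPaCa-2 and 0 further down. Cytosolic ribosomal proteins and respiratory chain genes went the other way, with 23 of 28 and 15 of 29 higher with simvastatin in PANC-1, and 19 of 28 and 17 of 29 further down in MiaPaCa-2 than in PANC-1. In MiaPaCa-2 NDUFS7 differed by -0.74, against 0.96 in PANC-1, a difference of -1.70 between the lines. Of the cell cycle genes, 12 of 34 replication genes and 13 of 34 mitosis genes were lower with simvastatin in PANC-1, and 14 mitosis genes were further up in MiaPaCa-2. For replication genes 11 were further up in MiaPaCa-2, and 5 without lovastatin replicate 2. In MiaPaCa-2 CDC6 differed by 1.58, against -0.56 in PANC-1, and SCD by 1.21 in MiaPaCa-2, against -0.66 in PANC-1. YAP and TAZ targets were lower in PANC-1 for 10 of 12. Of 19 interferon-stimulated genes 10 were higher in PANC-1 (6 without PANC-1 lovastatin replicate 3) and 7 were further down in MiaPaCa-2, with IFI6 at -1.48 in MiaPaCa-2 and 1.00 in PANC-1. NF-kappaB cytokines were further down in MiaPaCa-2 for 6 of 9, and for 3 without lovastatin replicate 2.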

How the data were processed

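The submitters' processing notes name the tools TopHat2 2.0.13, Cufflinks 1.1 and Cuffdiff and the build hg19. The authors deposited their log2 FPKM values as a single table of 8738 genes in 42 columns. Reading them as log2(FPKM + 1) is an assumption from their range, since the pseudocount is stated nowhere. At least 97.1% of the values of each independent column recurred in 5 or more columns, as in libraries scaled to a shared distribution. The rule that chose the 8738 genes, the step that shared the values and the strand setting are unstated, so shares of genes hold for this table. There were 7 symbols held by 2 gene IDs, kept apart by ID, and 0 columns that matched no sample. Besides the lovastatin column described above, MiaPaCa-2 control replicate 3 was a weighted sum of other columns (0.50 of replicate 1, 0.49 of replicate 2 and 0.01 of a PANC-1 fluvastatin library), and both were left out, which left 19 independent MiaPaCa-2 libraries.

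Genes that reached 1 FPKM in 3 or more libraries of their line were fitted in limma 3.58.1 (R 4.3.3) with 1 mean per group over all groups of the line, a trended and robust moderated variance, and two-sided p-values adjusted by Benjamini-Hochberg over all genes tested. Differences between doses and lines were contrasts in such fits, the second over both lines. In simulated data for the main comparison (8534 genes, 50 changed at each size), 30% of changes of 0.5, 84% of 1, 98% of 2 and 100% of 4 on the log2 scale were recovered, with 4 false calls of 160. The cutoff for a call depends on the share of genes changed, and 200 were changed there, while 3184 were called in the data. The recovered shares therefore hold for the simulation. The named genes were the 15 largest increases and 15 largest decreases that were called, did not overlap and reached a mean of 5 FPKM, up to 6 called and 2 uncalled members of each list, up to 6 per direction for the differences between doses and lines, and genes on opposite sides of control. Symbols held by 2 IDs were passed over, and some genes that the rule names are not reported here. The members, the gene lists and the rule were chosen with earlier results of these data known. Promoter sequences and motif searches used RefSeq windows on GRCh38.p14, matched by symbol, and no coordinates were taken from hg19. Figures were drawn with matplotlib. Also tried were no filter, a pseudocount of 0.1, quantile normalization, a variance without trend and robust steps, the compared groups alone, a replicate block, all columns, adjustment over 4 pairs, and leaving out each library.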

Additional observations from a re-analysis of the deposited data

Results flagged for a closer look

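The difference between simvastatin and lovastatin was tested for change with dose and with cell line, and both tests called many genes. In MiaPaCa-2, 2080 genes differed between 20 µM and 2 µM. The largest differences between doses (log2, 20 µM minus 2 µM) were 3.73 for FAM25A, 2.74 for HMOX1, 2.61 for ABLIM3, 2.56 for HES7, 2.42 for NGFR and 2.30 for PPARG, and in the other direction -3.73 for the noncoding RNA SNHG22, -3.16 for PTGDS, -3.10 for UBE3D, -2.65 for EPGN, -2.53 for CSF3 and -2.51 for SNCG. EPGN lost that call without lovastatin 20 µM replicate 2, at -1.98 (limma adjusted p = 0.076).

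At 20 µM, 3412 genes differed between the lines. The largest differences between lines (log2, MiaPaCa-2 minus PANC-1) were 2.87 for FAM25A, 2.76 for FGFR1, 2.66 for the phosphatase PTP4A1, 2.60 for ABLIM3, 2.43 for FADS1 and 2.35 for the pseudogene RAB43P1, and in the other direction -4.41 for UBE3D, -3.46 for TNFRSF6B, -3.45 for PTGDS, -2.80 for SNHG22, -2.78 for the chloride transporter SLC12A5 and -2.78 for C8G. In PANC-1 at 20 µM, FAM25A, TNFRSF6B, SNHG22 and C8G averaged under 5 FPKM with either compound. PTP4A1 was at 1230, 1468 and 1205 FPKM with simvastatin, against 938 and 659 FPKM with lovastatin in MiaPaCa-2, and at 515, 545 and 89.1 FPKM with simvastatin, against 855, 1577 and 1065 FPKM with lovastatin in PANC-1. With a pseudocount of 0.1, FAM25A (limma adjusted p = 0.18) and SNHG22 (limma adjusted p = 0.082) lost the call between lines, and UBE3D lost it with the compared groups fitted alone (limma adjusted p = 0.11). UBE3D was at 5.62, 5.76 and 3.9 FPKM with simvastatin, against 43.3 and 56.8 FPKM with lovastatin in MiaPaCa-2, and at 6, 3.26 and 233 FPKM with simvastatin, against 2.52, 2.91 and 30.1 FPKM with lovastatin in PANC-1, and its difference between lines was -2.6 without PANC-1 simvastatin replicate 3 (limma adjusted p = 0.046).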

How the results depend on the processing

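No gene called under the naming rule changed sign in the alternatives run, and of 206 genes under the naming rule that were called between the compounds at 20 µM in MiaPaCa-2, 157 kept the call in every alternative. When single libraries were left out, 998 to 1316 genes were higher with simvastatin at 20 µM and 1542 to 2033 were bounded within 0.5. At 2 µM, leaving out single libraries gave 15 to 22 calls, 7 to 14 higher and 6 to 11 lower, with 0 to 4 and 0 to 1 of at least 2-fold. Higher calls no longer outnumbered lower ones there without simvastatin 2 µM replicate 2 (7 and 8), simvastatin replicate 3 (9 and 10) or lovastatin replicate 3 (11 and 11). There, 5 genes were called with a variance without trend and robust steps (5 higher, 0 lower, 1 and 0 by 2-fold), 2 with the compared groups alone (2 higher, 0 lower, 1 and 0 by 2-fold), and 68 with all columns (31 higher, 37 lower, 3 lower by 2-fold). In PANC-1 at 20 µM, a pseudocount of 0.1 gave 141 and 224 genes higher and lower by 2-fold, the compared groups alone gave 1184 lower, and leaving out single libraries gave 64 to 142 higher by 2-fold. The causes were not tested. Replicate numbers did not pair the libraries, since same-numbered deviations correlated at 0 and 0.01. With a replicate block, 3080 genes were called at 20 µM in MiaPaCa-2, 28 at 2 µM (2 lower by 2-fold), 2010 between doses, 3289 in PANC-1 and 3415 between lines. The higher share of the calls at 20 µM in MiaPaCa-2 ran from 45.1% to 50% over the alternatives.

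In simulated data 30% of changes of 0.5 were recovered with 3 simvastatin and 2 lovastatin libraries. Far fewer genes were changed there (200) than were called in the data (3184), so recovery in the data can differ. Depth is unknown, and neither compound's uptake nor its hydrolysis was measured, so equal doses in the medium are the only match between them.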
